A study of Mus musculus with 18 samples.

Results

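The genes of the mitochondrial ribosome were examined in 18 mRNA libraries of cultured mouse T cells. Members are the protein-coding genes whose symbol starts with Mrpl or Mrps followed by a digit, pseudogenes left out. This rule takes 78 of the 55487 genes in the count table, 49 with an Mrpl and 29 with an Mrps symbol. By the current names of the proteins, 51 belong to the large subunit, since Mrps30 (protein mL65) and Mrps18a (mL66) sit there, and 27 were placed in the small subunit. Spleen T cells were sorted by flow cytometry and then stimulated for 72 h. The wells were coated with anti-CD3 at 2 µg/ml, and the medium held IL-2 at 10 ng/ml and anti-CD28 at 2 µg/ml. The labels give 6 groups of 3 libraries: CD8+ KO, CD8+ WT, CD4+ KO, CD4+ WT, Treg KO and Treg WT. KO stands for the strain Foxp3 YFP/cre Ebi3 -/- and WT for the strain Foxp3 YFP/cre. All mice thus carried the YFP/cre allele of Foxp3, whose product specifies the regulatory T cell (Treg) lineage, and the KO strain also lacked Ebi3, which encodes a chain of the cytokines IL-27 and IL-35. Each library was made with a 3' tag kit and unique molecular identifiers, so a transcript is counted at its 3' end. The age of the mice is not stated in the sources used here. Nothing there says that replicates came from different animals or cultures, and p-values therefore reflect the spread among these libraries, which may be technical.

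The mitochondrial ribosome translates the few mRNAs that mitochondrial DNA encodes, all for subunits of the respiratory chain and ATP synthase. Its RNAs come from mitochondrial DNA, whereas every one of its proteins is encoded in the nucleus, made in the cytosol and imported. Some of these proteins have a counterpart in the bacterial ribosome and others were added in mitochondria. When a T cell is activated it grows, divides and enlarges its mitochondria, and its cytotoxic and proliferative programs are known to need mitochondrial translation.

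Total counts ranged from 1819035 to 2077358 in the CD8 libraries, from 1358671 to 2255950 in CD4 and from 841892 to 1089003 in Treg. Ebi3 did not separate the genotypes outside CD4. It had 47 to 71 counts in CD8 KO libraries and 55 to 60 in CD8 WT, 47 to 50 in CD4 KO and 70 to 83 in CD4 WT, and 20 to 36 in Treg KO and 21 to 42 in Treg WT. No source used here places the deleted part against the 3' tag, so these counts do not check the labels, and KO and WT name a library's label only. The Treg libraries also stood apart from their label. Foxp3 was counted at most 1 time per library in all 18. No source used here places the altered part of the YFP/cre allele against the 3' tag, so Foxp3 counts do not check the label. Il2ra had 89 to 146 counts in Treg libraries, against 1266 to 1856 in CD8 and 496 to 1631 in CD4. Among the other listed Treg markers, Tnfrsf18 had 41 to 81 counts, against 404 to 598 in CD8 and 294 to 794 in CD4. Ctla4 had 13 to 25, against 62 to 141 and 46 to 192. Lrrc32 had 0 to 4, against 10 to 27 and 3 to 14. Ikzf2 did not follow them, with 28 to 59 counts in Treg, 46 to 146 in CD8 and 18 to 58 in CD4. All are unscaled counts, and Treg libraries had the lower totals. Both Cd8a (26 to 38 counts) and Cd4 (28 to 71 counts) were present in Treg libraries. Genes with a count numbered 20034 to 20596 in Treg libraries, against 16729 to 17338 in CD8 and 16193 to 17254 in CD4, and olfactory receptor genes took 462 to 526 counts in Treg libraries, against 9 to 29 in CD8 and 13 to 33 in CD4. Treg is therefore used only as the label of 6 libraries. Treg KO replicates 1 and 3 were no farther apart than the sampling noise, nor were Treg WT replicates 1 and 2, and each pair is counted as 1 sample in group means. The tests fitted all 18 libraries, and the Treg counts are also given with these pairs merged. The same held for 4 of 9 pairs of a Treg KO with a Treg WT library. Markers of B cells and red cells were counted in every library, although T cells had been sorted.

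All 78 members had counts, 139162 in all, and 77 passed the filter on low counts that left 12693 genes for testing. Mrps18b, with 102 counts over the 18 libraries, was the member left out. Levels are given as CPM, the usual depth-scaled count, here over the TMM-adjusted library size, and because 1 tag stands for 1 transcript they were not divided by length. Mean levels of the tested members spanned 46.5-fold, and 64 of 77 lay between 20 and 100 CPM, with a median of 58.4 CPM in the large and 52.7 CPM in the small subunit. The 5 members of highest mean level took 14.9% of the members' counts.

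Mrpl18 (chr17:12911349-12916345, minus strand, GRCm38), the counterpart of bacterial ribosomal protein uL18, was the most abundant. It ranged from 208 to 268 CPM with a median of 231 in CD8 libraries, from 200.01 to 244 CPM with a median of 224 in CD4 and from 93.9 to 121 CPM with a median of 112 in Treg. In CD8 and CD4 its lowest library was above the highest library of every other member. In Treg libraries Mrpl52, a large-subunit protein without bacterial counterpart, had the highest median (from 118 to 181 CPM with a median of 157), and its range overlapped that of Mrpl18. Mrpl12, the flexible stalk protein that recruits translation factors and is also known to bind the mitochondrial RNA polymerase, averaged 129 CPM over the 18 libraries, Mrpl15 117 and Mrpl51 111. Of the 77 steps between neighbours in the order of levels, only 2 in CD8, 3 in CD4 and 1 in Treg separated their ranges, so the order within the middle of the family is not resolved.

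The low end was held mostly by genes named Mrps. Mrps36 averaged 4.04 CPM, and its protein is now known as a part of the 2-oxoglutarate dehydrogenase complex rather than of the ribosome. Mrps11 averaged 9.33, Mrpl23 12, Mrps28 12.2 and Mrps21 13 CPM. The paralogs Mrps18a, Mrps18b and Mrps18c, descendants of 1 bacterial protein, differed widely in level. Mrps18c, the copy that keeps the bacterial position in the small subunit, averaged 55.3 CPM, Mrps18a, which moved to the large subunit, 25.1 and Mrps18b 3.39. Near-identical copies limit some of these values: 11 members, Mrpl22, Mrpl23, Mrps10, Mrps18b, Mrps18c and Mrps21 among them, have a processed pseudogene at least 95% identical over 100 or more bases of their last 200, and how reads with several alignments were counted is not given in the sources used here. In 27 members an exon overlaps a gene on the opposite strand, and whether counting used the strand is not given in the sources used here. In 8 an exon overlaps another gene on the same strand, and Mrpl53 (2041 counts) ends within Gm42688 (2047 counts), so the level of Mrpl53 is uncertain.

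**Figure D1:**
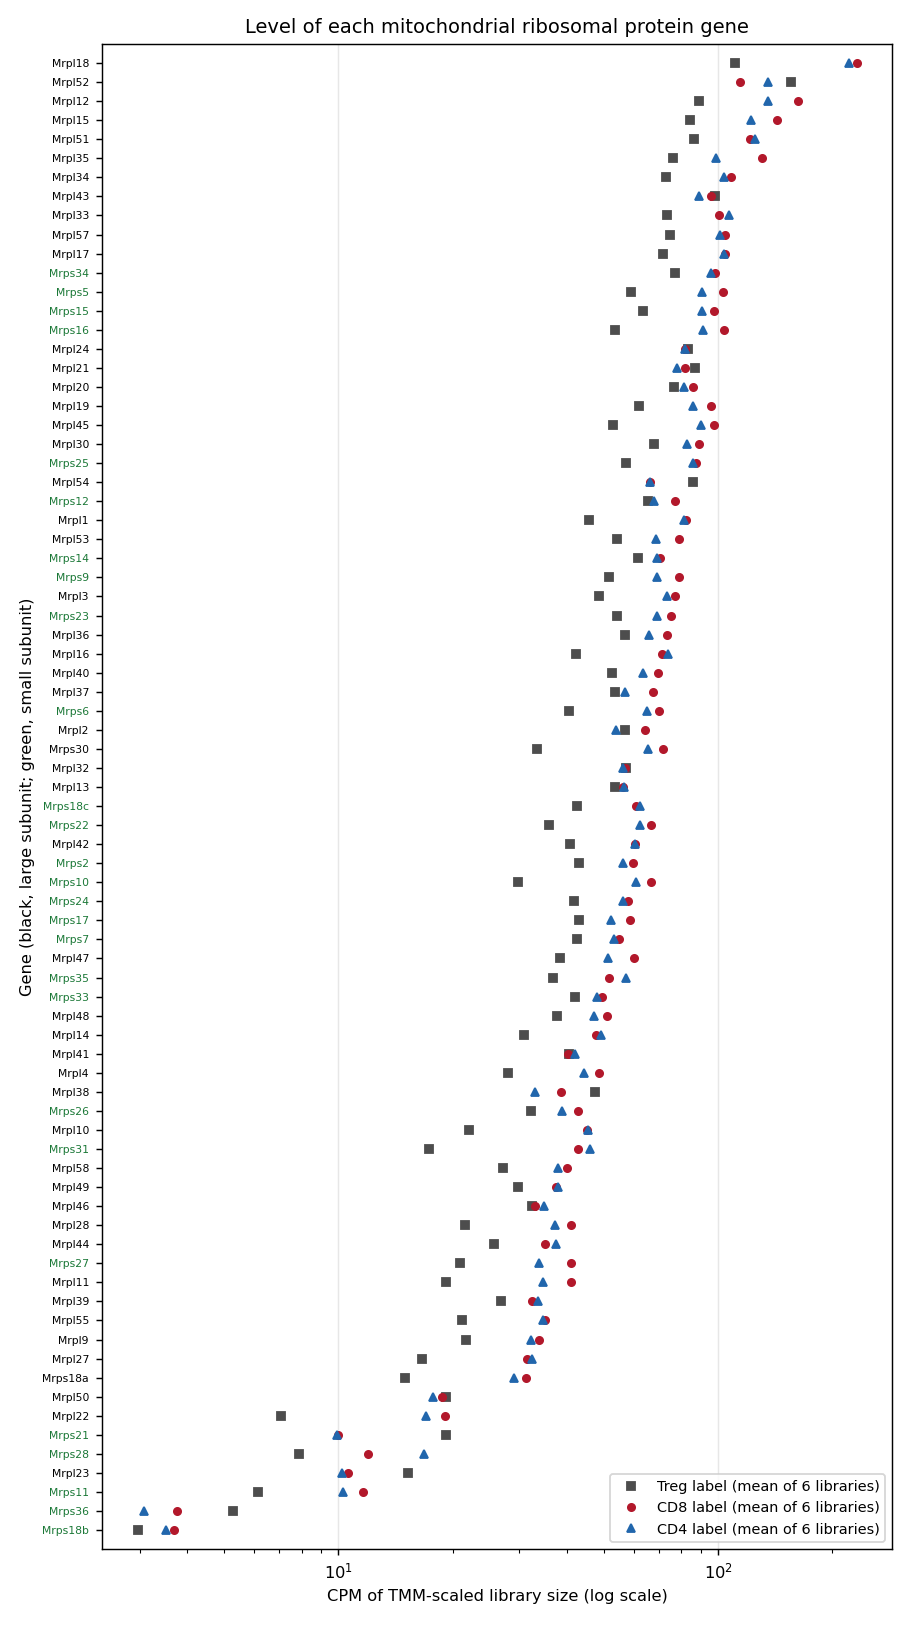
Mean CPM of each of the 78 genes (log axis) over the 6 libraries of each cell label, Treg (squares), CD8 (circles) and CD4 (triangles), ordered by the mean over 18 libraries. Mrpl18 heads the order in CD8 and CD4, and most squares lie left of the other symbols. Some squares lie right of both, among them those of Mrps21, Mrpl23, Mrpl38, Mrpl52 and Mrpl54.

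Together the members took between 0.445% and 0.578% of all counts in CD8 and CD4 libraries, and less in Treg libraries. The share was 0.507, 0.515 and 0.488% in CD8 KO libraries and 0.573, 0.578 and 0.522% in CD8 WT. It was 0.518, 0.495 and 0.544% in CD4 KO and 0.445, 0.515 and 0.5004% in CD4 WT. It was 0.353, 0.349 and 0.347% in Treg KO and 0.355, 0.347 and 0.354% in Treg WT. The highest Treg library was thus below the lowest CD8 and CD4 library, while KO and WT did not overlap in CD8, overlapped in CD4 and overlapped in Treg. Exact 95% intervals, which cover counting error only, ran from 0.567% to 0.589% for the highest library, CD8 WT replicate 2, and from 0.334% to 0.359% for the lowest, Treg KO replicate 3. The ratio of the mean shares was 0.903 for KO over WT in CD8, 1.07 in CD4 and 0.991 in Treg. An exact permutation test of such a share, 3 libraries against 3, has a smallest possible p of 0.1. The large subunit held 2.21 to 2.66 times as many counts as the small one, from 2.34 to 2.66 in Treg libraries, 2.21 to 2.45 in CD8 and 2.25 to 2.45 in CD4.

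**Figure D2:**
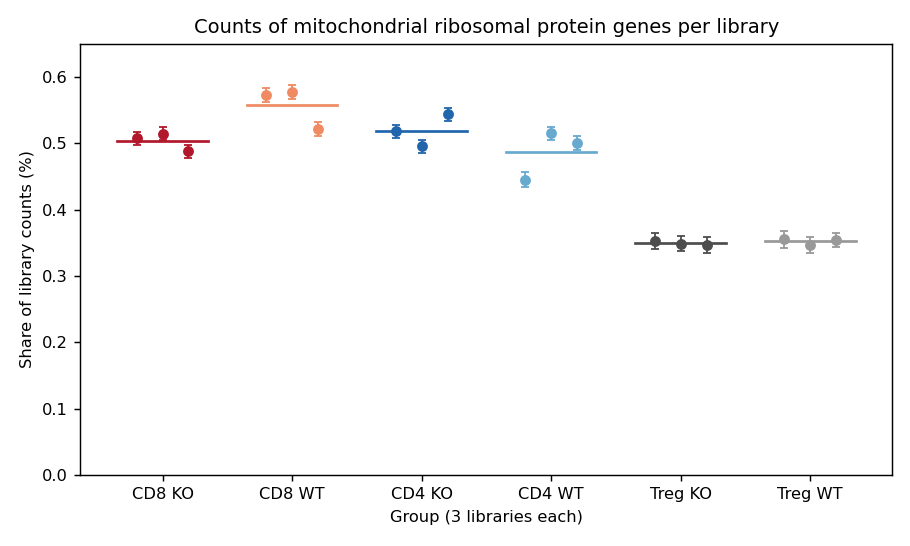
Share of each library's counts (%) that fell on the 78 genes, by group. Points are libraries with exact 95% intervals on counts and lines are group means, with the near-identical Treg pairs averaged first. The 6 Treg libraries lie between 0.347% and 0.355%, below all CD8 and CD4 libraries.

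Within CD8 and CD4 the share moved with the makeup of the libraries. Over these 12 libraries it rose with the summed CPM of 6 T cell markers (T cell receptor and CD3 genes), with Pearson's r = 0.94 and Spearman's rho = 0.84 (permutation p = 2e-05, the smallest these permutations can give, and 0.0013). It fell with the sum of 8 B cell markers (r = -0.89, rho = -0.83, permutation p = 4e-05 and 0.00158) and with that of 9 erythroid and platelet markers (r = -0.86, rho = -0.81, permutation p = 0.00012 and 0.0024). Without the 2 libraries farthest from the median the values of r were 0.87, -0.75 and -0.80, and over the 9 relations computed the adjusted p of the pooled r was 0.00018, 0.00018 and 0.00036. Within the 6 CD8 libraries r was 0.96, -0.96 and -0.94, and within the 6 CD4 libraries 0.99, -0.95 and -0.90, with exact permutation p of 0.0139, 0.0194 and 0.0194 in CD8 and 0.0111, 0.0167 and 0.0639 in CD4. The adjusted p over the 9 relations was 0.0218 for each of these but the last, at 0.0639. The smallest share of the 12, 0.445% in CD4 WT replicate 1, stood beside the highest B cell sum (6234 CPM). Members and markers share the library total, and the part of the cell mixture in the members' share was not tested. In bulk libraries fewer cells of a type and less RNA per cell cannot be told apart.

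**Figure D3:**
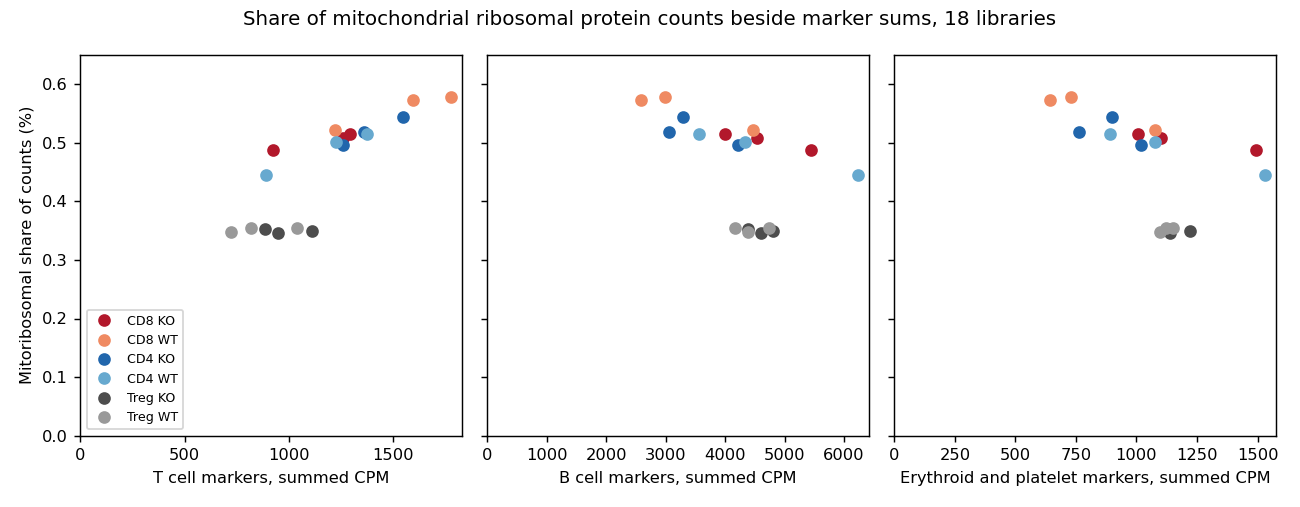
Share of counts on the 78 genes (%, vertical axes) against the summed CPM of T cell, B cell, and erythroid and platelet markers in the 18 libraries. In CD8 and CD4 libraries the share is high where T cell markers are high and low where B cell or erythroid markers are high, while the Treg libraries form a separate cluster near 0.35%.

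Most members were lower in the Treg libraries than in CD4 and CD8 libraries, both genotypes averaged. Against CD4, 52 of 77 tested members were lower and 4 higher (quasi-likelihood test of edgeR, p under 0.05 after Benjamini-Hochberg adjustment over all genes). Against CD8, 56 were lower and 5 higher. Of all genes tested, 25.2% were called lower and 33.3% higher against CD4, and 26.2% lower and 33.9% higher against CD8, so the members' shares called lower, 67.5% and 72.7%, lay well above and those called higher below the background. Their median log2 fold change was -0.49 against CD4 and -0.49 against CD8, beside 0.08 and 0.07 over all genes. In 31 members every Treg library was below every CD4 library and in 39 below every CD8 library, where 14.6% and 16% of all genes had that pattern; 2 members, Mrpl38 and Mrpl54, were entirely above CD4 (21% of all genes) and 0 above CD8 (22.2%). Against CD4, 34 of 51 large and 18 of 26 small subunit genes were lower, with medians of -0.49 and -0.48. By origin, 33 of 46 genes classed with a bacterial counterpart at the same position were lower (median -0.54). Of the 31 not so classed, Mrps18a among them, 19 were lower (median -0.34). A Treg test with the near-identical pairs merged called 50 lower and 3 higher against CD4, and 56 and 3 against CD8.

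Mrpl18 gave the smallest p of the family in both comparisons. It had 93.9, 121 and 111 CPM in Treg KO and 113, 107 and 118 in Treg WT libraries, against 226, 223 and 244 in CD4 KO and 209, 228 and 200.01 in CD4 WT. The Treg libraries did not overlap with the CD4 or with the CD8 libraries, given above. Its log2 fold change was -0.99 (SE 0.08, adjusted p = 1.86e-12) against CD4 and -1.05 (SE 0.08, adjusted p = 3.96e-13) against CD8.

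The 4 stalk proteins named here were lower in both comparisons. Mrpl10, which anchors the stalk, had 19.3, 24.7 and 18.2 CPM in Treg KO and 23.1, 28 and 18.9 in Treg WT, against 51.1, 41.9 and 36.6 in CD4 KO and 39, 49.8 and 54 in CD4 WT. All 6 Treg libraries were below all CD4 libraries, and the log2 fold change was -1.05 (SE 0.15, adjusted p = 5.83e-07). Mrpl12 changed by -0.62 (SE 0.09, adjusted p = 4.37e-07) against CD4 and by -0.87 (SE 0.09, adjusted p = 4.3e-10) against CD8. Mrpl11, at the base of the stalk, changed by -0.86 (SE 0.16, adjusted p = 3.52e-05) against CD4, where 1 or more Treg libraries overlapped with CD4, and by -1.08 (SE 0.16, adjusted p = 6.3e-07) against CD8. Mrpl1, of the opposite stalk, changed by -0.85 (SE 0.13, adjusted p = 1.3e-06) and -0.84 (SE 0.13, adjusted p = 1.19e-06).

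Around the peptide exit, Mrpl22 (chr11:58171661-58179565, plus strand), whose bacterial counterpart lines the exit tunnel, had 7.23, 9.48 and 7.297 CPM in Treg KO and 5.14, 3.65 and 9.47 in Treg WT, against 18.6, 16 and 21.3 in CD4 KO and 12.3, 16.3 and 17.8 in CD4 WT. The groups were apart although the levels are low, with log2 fold changes of -1.24 (SE 0.25, adjusted p = 6.33e-05) against CD4 and -1.39 (SE 0.24, adjusted p = 8.71e-06) against CD8. Mrpl45, which holds the ribosome at the inner membrane near the exit, changed by -0.77 (SE 0.11, adjusted p = 4.26e-07) and -0.88 (SE 0.11, adjusted p = 3.11e-08). Mrpl23, another exit protein of bacterial origin, was called higher, with little support from the alternatives. It had 14.5, 10.4 and 9.73 CPM in Treg KO and 23.1, 20.7 and 13.3 in Treg WT, against 9.96, 10.9 and 7.88 in CD4 KO and 8.66, 11 and 12.8 in CD4 WT. Its ranges overlapped and its calls were close to the threshold, 0.51 (SE 0.21, adjusted p = 0.0389) against CD4 and 0.49 (SE 0.21, adjusted p = 0.045) against CD8. The call was lost in 15 of 22 alternatives against CD4 and in 14 of 22 against CD8, where KO libraries alone gave -0.12.

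Among small-subunit members called lower, Mrps31 and Mrps10, both of the head of the subunit, had the largest fold changes. The low-level Mrps28 stood at -1.08 against CD4 (SE 0.45) without passing the test (adjusted p = 0.0513). Mrps31, specific to mitochondria, had 15.7, 17.1 and 15.8 CPM in Treg KO and 19.3, 21.9 and 14.2 in Treg WT, against 55.4, 46.6 and 43.1 in CD4 KO and 26.7, 55.5 and 49 in CD4 WT. No library overlapped, and the log2 fold change was -1.44 (SE 0.19, adjusted p = 1.45e-07) against CD4 and -1.29 (SE 0.19, adjusted p = 9.95e-07) against CD8. Mrps10 changed by -1.03 (SE 0.15, adjusted p = 8.77e-07) and -1.17 (SE 0.15, adjusted p = 7.59e-08), Mrps16 by -0.76 (SE 0.11, adjusted p = 5.97e-07) and -0.93 (SE 0.11, adjusted p = 1.21e-08), and Mrps22, which carries disease mutations in humans, by -0.80 (SE 0.13, adjusted p = 4.72e-06) and -0.89 (SE 0.13, adjusted p = 6.3e-07). Mrps27, a pentatricopeptide repeat protein, changed by -0.68 (SE 0.16, adjusted p = 0.000464) and -0.94 (SE 0.16, adjusted p = 3.67e-06). Mrps12, which forms part of the decoding centre, did not pass (-0.05, SE 0.11, adjusted p = 0.716 against CD4, and -0.23, SE 0.11, adjusted p = 0.0648 against CD8).

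Mrps30, a large-subunit protein added in mitochondria, had 27.7, 33.2 and 36.5 CPM in Treg KO and 41.1, 31.7 and 30.3 in Treg WT. Its levels were 69.3, 68.3 and 69.5 in CD4 KO and 55.6, 61.3 and 68 in CD4 WT. The Treg libraries were entirely lower (-0.97, SE 0.11, adjusted p = 7.61e-09 against CD4 and -1.10 (SE 0.11, adjusted p = 4.56e-10) against CD8). Mrps18a changed by -0.99 (SE 0.18, adjusted p = 1.96e-05) and -1.08 (SE 0.18, adjusted p = 3.98e-06) and its small-subunit paralog Mrps18c by -0.54 (SE 0.13, adjusted p = 0.000541) and -0.51 (SE 0.13, adjusted p = 0.000937). Mrpl44, which resembles a ribonuclease, changed by -0.54 (SE 0.13, adjusted p = 0.000663) and -0.44 (SE 0.13, adjusted p = 0.00425). Mrpl58, which in humans can release peptides from stalled ribosomes, changed by -0.49 (SE 0.14, adjusted p = 0.00313) and -0.55 (SE 0.14, adjusted p = 0.00103). Mrpl16 and Mrpl27 stand near the peptidyl transferase centre in the bacterial ribosome. Mrpl16 changed by -0.81 (SE 0.13, adjusted p = 2.11e-06) against CD4, and Mrpl27 by -0.98 (SE 0.19, adjusted p = 3.79e-05) against CD4, with overlap, and by -0.92 (SE 0.19, adjusted p = 8.76e-05) against CD8, without.

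The members that were higher in Treg libraries were few. Mrps21, a small-subunit protein of bacterial origin, had 16.9, 19.9 and 9.73 CPM in Treg KO and 24.4, 25.6 and 18.9 in Treg WT, against 12.1, 12.4 and 7.88 in CD4 KO and 5.05, 11 and 11.1 in CD4 WT, and 10.2, 11.7 and 19.9 in CD8 KO and 9.45, 3.53 and 4.898 in CD8 WT. The ranges overlapped in both comparisons (0.91, SE 0.24, adjusted p = 0.00198 against CD4 and 1.04 (SE 0.25, adjusted p = 0.000589) against CD8). For Mrps21, KO libraries alone gave 0.55 against CD4 and 0.16 against CD8, and WT libraries alone 1.26 and 1.91. Mrpl54, of the large subunit, had 84.3, 89.2 and 76.6 CPM in Treg KO and 98.9, 84 and 81.4 in Treg WT, against 68.9, 69.4 and 76.5 in CD4 KO and 69.3, 53.6 and 59.6 in CD4 WT, and all Treg libraries were higher (0.38, SE 0.11, adjusted p = 0.00311). Mrpl54 changed by 0.37 (SE 0.11, adjusted p = 0.004) against CD8. Mrpl38 changed by 0.50 (SE 0.14, adjusted p = 0.002) against CD4 and 0.31 (SE 0.13, adjusted p = 0.048) against CD8, and the CD8 call was lost in 16 of 22 alternatives (adjusted p from 0.0252 to 0.49). Mrpl52 did not pass against CD4 (0.20, adjusted p = 0.0578) and was higher against CD8 (0.45, SE 0.09, adjusted p = 8.6e-05), where CD8 WT libraries were low (107, 92.3 and 108 CPM, beside 125, 116 and 136 in CD8 KO). With KO libraries alone, 0 members were called higher in either comparison, beside 3524 of 12693 genes against CD4 and 3189 against CD8. With WT libraries alone, 4 members were higher against CD4 and 5 against CD8, beside 3151 and 3661 genes.

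**Figure D4:**
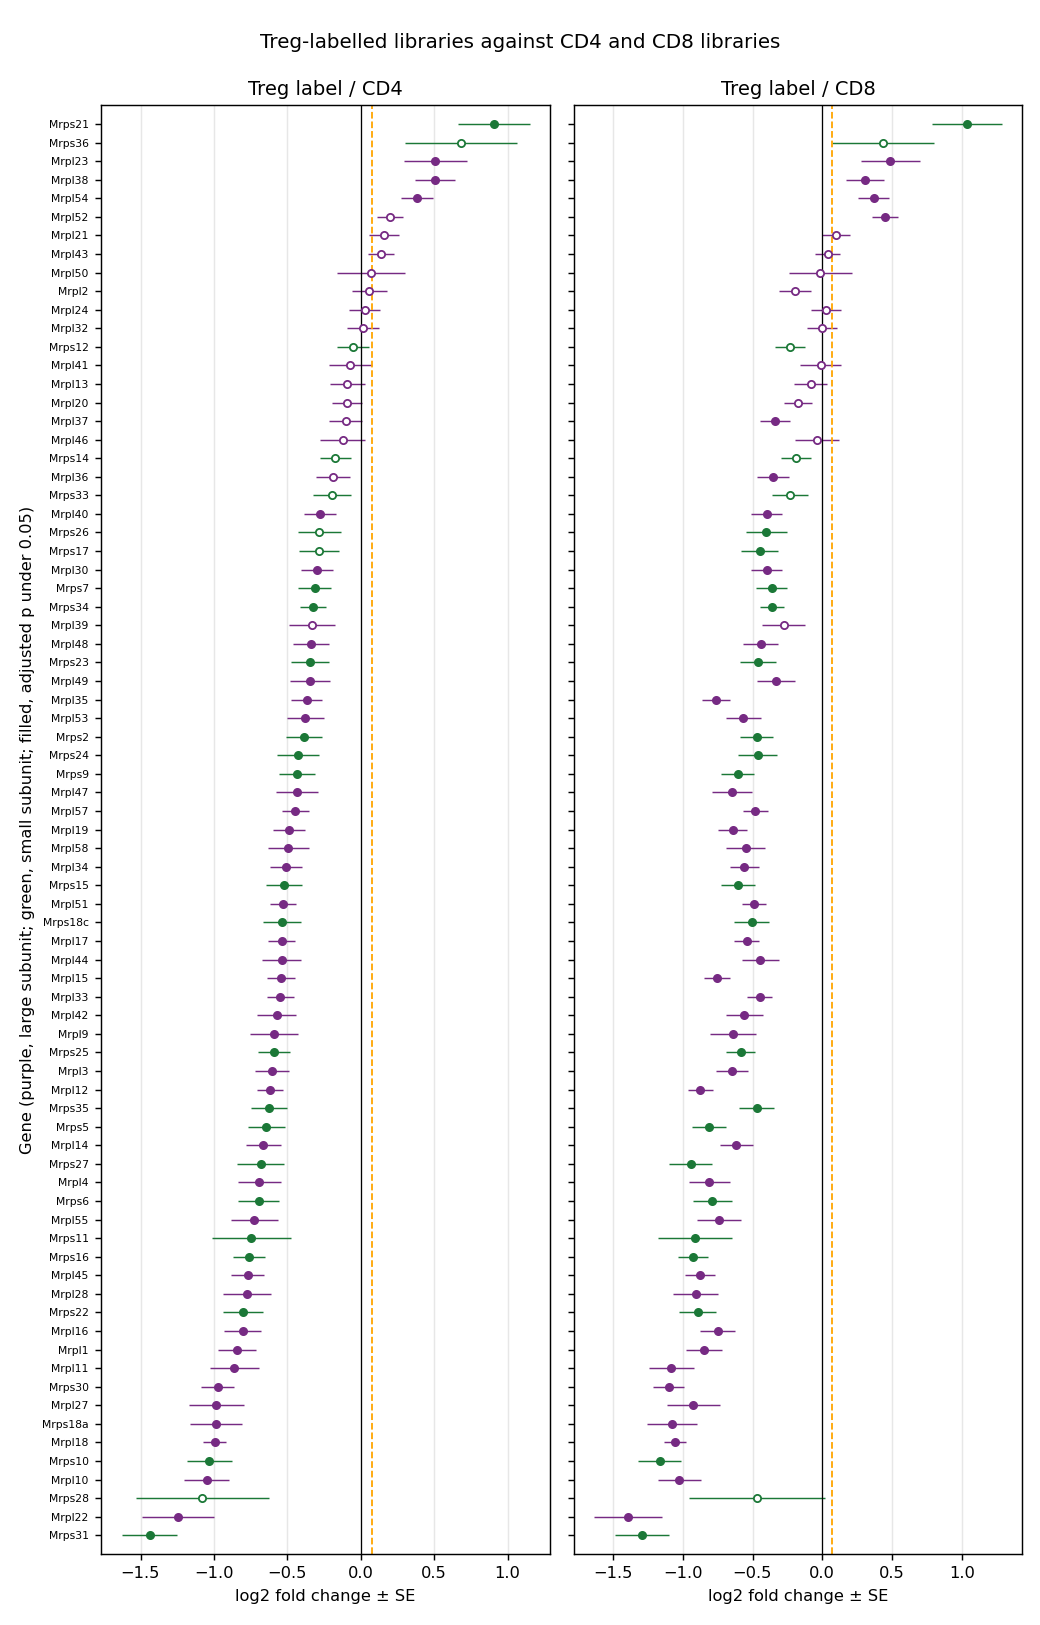
Log2 fold change ± SE of the 77 tested genes, Treg libraries over CD4 (left) and over CD8 (right), in the order of the left panel. Filled points passed an adjusted p of 0.05, the dashed line is the median of all genes, and purple and green mark the large and small subunit. Points run from Mrps31 at -1.44 to Mrps21 at 0.91 on the left, and both subunits spread over the whole range.

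Other features moved with the cell label as well. Myeloid and dendritic markers summed to 42.2 to 60.6 CPM in Treg libraries, against 9.70 to 28.9 in CD8 and 13.7 to 20.3 in CD4. These sums rest on few counts, 39 to 52 per Treg KO library and 46 to 51 per Treg WT library. T cell markers summed to 724 to 1112 CPM in Treg, against 923 to 1775 in CD8 and 888 to 1546 in CD4, and B cell markers to 4170.4 to 4797 CPM, against 2585 to 5447 and 3049 to 6234. Their part in the members' fall, like that of the olfactory receptor counts and of the lower depth, was not tested.

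Other genes of the mitochondrial translation system, taken from fixed lists, did not all follow the ribosome. All 5 ribosomal proteins whose symbol falls outside the naming rule were lower in both comparisons, among them Chchd1 (-0.63, SE 0.08, adjusted p = 5.98e-08 against CD4) and Dap3 (-0.51, SE 0.11, adjusted p = 0.000255), a GTP-binding small-subunit protein. Of 12 tested translation factors, 6 were lower against CD4 and 7 against CD8, and 0 higher. Beside them, 25.2% of all genes were lower and 33.3% higher against CD4, and 26.2% and 33.9% against CD8. Tsfm, the exchange factor of the elongation factor Tu, changed by -1.28 (SE 0.16, adjusted p = 4.3e-08) and -1.45 (SE 0.16, adjusted p = 2.7e-09), and Gfm1, elongation factor G, by -1.21 (SE 0.19, adjusted p = 2.63e-06) and -1.43 (SE 0.19, adjusted p = 9.8e-08). Mtfmt, which formylates the initiator tRNA, changed by -0.63 (SE 0.21, adjusted p = 0.0104) and -0.96 (SE 0.20, adjusted p = 0.000103).

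Of 26 assembly genes, 5 were higher (19.2%) and 5 lower (19.2%) against CD4, and 3 higher (11.5%) and 8 lower (30.8%) against CD8. Apart from the last, near the background of 26.2%, these shares lay below those of all genes given above. Nsun4, which methylates the small ribosomal RNA, was higher (1.18, SE 0.14, adjusted p = 8.73e-09 against CD4), whereas Mtg1, a GTPase of large-subunit assembly, was lower (-1.04, SE 0.17, adjusted p = 4.72e-06), as was Tfb1m, which also modifies the small ribosomal RNA (-0.72, SE 0.20, adjusted p = 0.00253). Of 12 tested genes of mitochondrial transcription and RNA processing, 5 were lower and 1 higher against CD4, and 5 and 0 against CD8. The shares of all genes were 25.2% lower and 33.3% higher against CD4, and 26.2% and 33.9% against CD8. Supv3l1, an RNA helicase, changed by -1.23 (SE 0.25, adjusted p = 7.92e-05) against CD4, Elac2, which cuts tRNA ends, by -1.05 (SE 0.15, adjusted p = 2.39e-07), and Polrmt, the RNA polymerase, by 0.72 (SE 0.17, adjusted p = 0.000487). Of 17 mitochondrial tRNA synthetases, 3 were higher (17.6%) and 4 lower (23.5%) against CD4, and 3 higher and 3 lower against CD8, none of these shares above that of all genes. Lars2, the leucine enzyme, stood far from the rest at 3.48 (SE 0.10, adjusted p = 9.34e-24) against CD4, and Yars2, the tyrosine enzyme, changed by -0.85 (SE 0.15, adjusted p = 1.44e-05). Near-identical copies and overlapping exons were looked for in members only. The counts of Lars2 were not checked in this way.

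Larger families gave other counts. Of 71 cytosolic ribosomal protein genes, 45 were higher and 11 lower against CD4 (median 0.24), and 49 and 9 against CD8 (median 0.31). Of 80 tested nuclear genes of oxidative phosphorylation, 41 were lower and 10 higher against CD4 (median -0.21), and 42 and 9 against CD8 (median -0.23). Of 8 tested mRNAs encoded by mitochondrial DNA, 3 were lower and 4 higher in each comparison. Among all genes, 33.3% were higher and 25.2% lower against CD4, and 33.9% and 26.2% against CD8. Cytosolic ribosomal protein genes took 9.99% to 10.8% of counts in Treg libraries, against 7.56% to 9.38% in CD8 and 8.69% to 9.13% in CD4. These counts describe each family, and a difference between families was not tested.

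Printed here are the promoters of some members called in a comparison of cell labels, with the short motifs that each holds. The motifs differ among them. RefSeq (GRCm38.p6) gave a window of 250 bases before to 50 after the start for 69 of 78 members. The letters searched on both strands were CCGGAAG for ETS factors such as GABP, GCGCATGCG for NRF1, CACGTG for MYC-type factors, AAGATGGCG for YY1, GGGCGG for SP1 and TATAAA, and a promoter was counted once for a motif. Lower case is used throughout, with motif letters other than the SP1 and TATA letters in capitals. Mrpl22 is at chr11:58171414-58171713, plus strand, Mrps18a at chr17:46110754-46111053, plus strand, Mrps27 at chr13:99344536-99344835, plus strand, Mrpl52 at chr14:54426659-54426958, plus strand, Mrps21 at chr3:95871465-95871764, minus strand and Mrpl35 at chr6:71823735-71824034, minus strand.
Mrpl22: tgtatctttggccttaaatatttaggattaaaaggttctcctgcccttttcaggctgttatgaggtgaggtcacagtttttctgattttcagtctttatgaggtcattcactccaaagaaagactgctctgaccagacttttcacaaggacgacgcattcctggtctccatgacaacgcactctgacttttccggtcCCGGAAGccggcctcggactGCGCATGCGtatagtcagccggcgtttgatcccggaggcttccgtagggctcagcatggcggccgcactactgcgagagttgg
Mrps18a: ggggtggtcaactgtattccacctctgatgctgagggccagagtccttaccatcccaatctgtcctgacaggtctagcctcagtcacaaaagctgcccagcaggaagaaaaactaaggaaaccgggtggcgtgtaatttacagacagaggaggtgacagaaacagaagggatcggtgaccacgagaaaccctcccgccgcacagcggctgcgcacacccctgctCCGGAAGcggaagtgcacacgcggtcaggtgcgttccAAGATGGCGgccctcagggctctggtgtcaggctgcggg
Mrps27: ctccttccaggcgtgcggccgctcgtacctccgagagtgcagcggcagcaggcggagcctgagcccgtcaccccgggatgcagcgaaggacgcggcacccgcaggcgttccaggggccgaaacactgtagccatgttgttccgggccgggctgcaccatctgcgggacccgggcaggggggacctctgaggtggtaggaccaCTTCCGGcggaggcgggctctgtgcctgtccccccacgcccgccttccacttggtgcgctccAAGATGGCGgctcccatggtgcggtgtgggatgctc
Mrpl52: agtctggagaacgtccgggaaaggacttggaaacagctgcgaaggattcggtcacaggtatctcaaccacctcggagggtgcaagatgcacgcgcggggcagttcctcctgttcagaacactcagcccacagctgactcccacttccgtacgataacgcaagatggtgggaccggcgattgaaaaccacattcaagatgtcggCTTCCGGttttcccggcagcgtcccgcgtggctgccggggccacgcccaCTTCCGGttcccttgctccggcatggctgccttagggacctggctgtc
Mrps21: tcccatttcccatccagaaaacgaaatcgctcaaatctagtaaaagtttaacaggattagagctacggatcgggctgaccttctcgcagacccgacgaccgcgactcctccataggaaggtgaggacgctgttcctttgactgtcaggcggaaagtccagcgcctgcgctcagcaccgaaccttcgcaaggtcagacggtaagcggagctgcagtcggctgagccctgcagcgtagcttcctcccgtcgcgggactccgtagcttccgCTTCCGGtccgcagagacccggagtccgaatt
Mrpl35: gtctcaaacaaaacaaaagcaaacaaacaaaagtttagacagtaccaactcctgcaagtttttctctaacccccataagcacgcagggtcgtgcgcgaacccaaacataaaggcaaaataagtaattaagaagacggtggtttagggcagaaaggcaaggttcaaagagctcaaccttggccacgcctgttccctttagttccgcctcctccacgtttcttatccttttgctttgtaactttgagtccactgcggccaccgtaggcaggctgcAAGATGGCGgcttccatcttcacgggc

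Mrpl22 holds ETS letters starting 53 bases and NRF1 letters 33 bases before the start. Mrps18a has ETS letters 26 bases before and YY1 letters 12 bases after it, and Mrps27 ETS letters 48 bases before and YY1 letters 15 bases after. These 3 genes were lower in Treg libraries. Mrpl52 holds ETS letters at 47 bases before and 3 after the start, and Mrps21 at 19 after, and both were higher against CD8. Mrpl35, with YY1 letters 24 bases after the start, is described with the comparison of CD8 and CD4. Of the 69 promoters, 25 (36.2%) hold the ETS letters, against 12.3% of the promoters of 16513 protein-coding genes, 8 (11.6%) the YY1 letters, against 2.05%, and 7 (10.1%) the NRF1 letters, against 2.52%. The MYC-type letters stood in 7.25%, against 8.11%, the SP1 letters in 49.3%, against 48%, and TATAAA in 5.8%, against 12.9%. The median GC content was 58.3% in members and 57% in all. Members with and without the ETS letters had medians of -0.52 and -0.43 for Treg over CD4 (17 of 24 and 30 of 44 lower), the 6 with and 62 without NRF1 letters -0.56 and -0.44, and the 8 with and 60 without YY1 letters -0.50 and -0.47. The 5 members with the MYC-type letters had a median of -0.10 with 1 called lower, against -0.51 and 46 lower among the 63 without. For Treg over CD8 the contrast was smaller, with medians of -0.34 and -0.56 and 3 and 48 called lower. None of these differences was tested. A match of letters describes the window and shows no binding.

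Many members share a start region with a gene read in the opposite direction: 33 of 78 (42.3%) had the start of a protein-coding gene of the other strand within 1000 bases, against 17.3% of 10815 tested protein-coding genes. Of 20 such members that were lower in Treg against CD4, 7 had a partner called lower, 4 a partner called higher, 6 a partner that did not pass and 3 a partner that was not tested, beside 25.2% of all genes called lower and 33.3% higher. Mrpl18 and Tcp1, which encodes a chaperonin subunit, were both lower (-0.99 and -0.79), and so were Mrps27 and Ptcd2 (-0.68 and -0.65). Mrpl57 (-0.45) faces Ska3, a gene of the mitotic spindle, at -3.18, and Mrpl51 (-0.53) faces Ncapd2, a condensin gene, at -1.63. The opposite was seen for Mrpl49 (-0.34) and Fau, a cytosolic ribosomal protein gene, at 0.33.

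Between CD8 and CD4 libraries, both genotypes averaged, the family differed little. Of 77 members 2 were called higher in CD8 and 0 lower, beside 3.25% of all genes called higher and 2.68% lower. Mrpl35, of the large subunit, had 123, 134 and 108 CPM in CD8 KO and 143, 143 and 130.3 in CD8 WT, against 101, 103 and 121 in CD4 KO and 67.1, 97.6 and 103 in CD4 WT. The ranges overlapped, with CD8 KO replicate 3 below CD4 KO replicate 3, and the log2 fold change was 0.39 (SE 0.09, adjusted p = 0.00284). Mrpl12 had 138, 157 and 149 CPM in CD8 KO and 178, 193 and 160.2 in CD8 WT, against 139, 136 and 147 in CD4 KO and 125, 137 and 129 in CD4 WT. Its log2 fold change was 0.25 (SE 0.08, adjusted p = 0.0396), and the call was lost in 14 of 23 alternatives, DESeq2 (adjusted p = 0.122) among them. Next in size were Mrps27 (0.26, adjusted p = 0.276), and on the other side Mrps28 (-0.61, adjusted p = 0.453, and -0.23 without CD4 WT replicate 3), Mrpl52 (-0.25, adjusted p = 0.0915) and Mrps35 (-0.15, adjusted p = 0.519).

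The median log2 fold change of members, CD8 over CD4, was 0.06, beside 0.00 over all genes. It was 0.18 in WT libraries alone and -0.02 in KO libraries alone. In KO alone 0 members were called, beside 174 of 12693 genes higher and 281 lower. Mrpl35 stood at 0.62 (adjusted p = 0.00164) in WT alone and 0.17 (adjusted p = 0.568) in KO alone, and Mrpl12 at 0.44 (adjusted p = 0.0121) and 0.07 (adjusted p = 0.827). Among translation factors, Tufm, elongation factor Tu, was higher in CD8 (0.50, SE 0.15, adjusted p = 0.0442).

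No member passed the test between KO and WT in CD8 libraries, where 0.0551% of all genes were called higher and 0.11% lower by edgeR. At an unadjusted p under 0.05, 16 of 77 members were lower and 3 higher, beside 7.63% of all genes lower and 8.69% higher. The 3 KO libraries lay entirely below the WT libraries in 15 members (8.19% of all genes) and above in 6 (9.18% of all genes). The median was -0.09, beside 0.00 over all genes, and 54 of 77 values were negative. DESeq2 called 0 members, beside 27 of 12693 genes higher and 45 lower. Without the filter on low counts, edgeR called 1 member higher and 2 lower, beside 253 and 194 of 30423 genes.

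Mrps25, specific to mitochondria, had the lowest adjusted p. It had 76.2, 79.6 and 62.6 CPM in KO and 100.4, 111 and 93.1 in WT, without overlap (-0.48, SE 0.13, adjusted p = 0.0678). Mrps15, of the small subunit, had 77.8, 86.2 and 79.3 CPM in KO and 119.8, 133 and 89.6 in WT (-0.49, SE 0.14, adjusted p = 0.102). Mrpl58 had 34.9, 36.7 and 31.3 CPM in KO and 46.2, 46.4 and 45.1 in WT (-0.42, SE 0.16, adjusted p = 0.185). Each of the 3 was lower in all KO libraries, and none passed the main test. Mrps25 and Mrps15 each passed in 2 of 16 alternatives, and Mrpl58 in 0. An exon of Mrps25 overlaps Nr2c2 on the opposite strand.

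The largest positive values belonged to low-level members. Mrps21 had 10.2, 11.7 and 19.9 CPM in KO and 9.45, 3.53 and 4.898 in WT (1.23, SE 0.34, adjusted p = 0.0831). Mrps28 had 16.1, 15.3 and 18 CPM in KO and 9.94, 5.55 and 6.86 in WT (1.14, SE 0.53, adjusted p = 0.294), and Mrpl23 had 12.3, 15.3 and 9.97 CPM in KO and 9.45, 7.56 and 8.82 in WT (0.53, SE 0.26, adjusted p = 0.311). The groups did not overlap in any of the 3, and a few counts decide each value. Mrps21 passed in 1 of 16 alternatives, and Mrps28 and Mrpl23 in 0. Mrpl52, at a high level, had 125, 116 and 136 CPM in KO and 107, 92.3 and 108 in WT (0.29, SE 0.12, adjusted p = 0.23). Of the other lists, 1 translation factor, Tsfm, was called lower, with 35.4, 34.2 and 26.6 CPM in KO and 53.2, 66.1 and 45.5 in WT (-0.78, SE 0.16, adjusted p = 0.0338).

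Markers of other cells differed along with these values. In CD8 KO libraries B cell markers summed to 4535, 4004 and 5447 CPM, against 2585, 2996 and 4465 in WT, and erythroid and platelet markers to 1101, 1007 and 1492, against 643, 729.7 and 1077. T cell markers summed to 1257, 1293 and 923 CPM in KO, against 1593, 1775 and 1222 in WT. All 8 B cell and all 5 tested erythroid markers had positive and all 6 T cell markers negative fold changes, and 63 of 71 cytosolic ribosomal protein genes were positive. With the hemoglobin level of each library as a covariate, the members' median was 0.004. Because erythroid sums leaned higher in KO, this covariate and the genotype cannot be told apart in these libraries. The part of the cell mixture in the members' values was not tested.

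In CD4 libraries no member was called either, as was the case for 0% of all genes, and the values leaned the other way. At an unadjusted p under 0.05, 3 members were higher (3.55% of all genes) and 0 lower (3.77%). Groups lay apart in 7 members with KO above (4.92% of all genes) and in 1, Mrpl32, with KO below (4.71%), and the median was 0.11, with 57 of 77 positive. Mrpl40, of the large subunit, had 69.3, 70.9 and 73.7 CPM in KO and 39.7, 64.1 and 63.5 in WT (0.33, SE 0.13, adjusted p = 0.657). Mrps23 had 62.8, 66.3 and 105 CPM in KO and 53.4, 72.3 and 55.2 in WT, with overlap (0.36, SE 0.16, adjusted p = 0.667), and Mrpl50 had a value of 0.29 (adjusted p = 0.816). Mrps23 stood at 0.08 without CD4 KO replicate 3, Mrpl40 at 0.16 without CD4 WT replicate 1 and Mrpl50 at 0.09 without CD4 WT replicate 3. On the negative side stood Mrps26 (-0.27, adjusted p = 0.728), Mrpl32 (-0.24, adjusted p = 0.716) and Mrpl23 (-0.20, adjusted p = 0.893). Here B cell markers were lower in KO, 3049, 4224 and 3283 CPM, against 6234, 3553 and 4337 in WT, with overlap, and 1 library weighed on the result: the members' median was 0.05 without CD4 WT replicate 1.

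Between KO and WT in Treg libraries, 0 members and 0% of all genes were called, and 0 members with the near-identical pairs merged. Unadjusted, 0 were higher (1.05% of all genes) and 1, Mrpl23, lower (1.11%), at -0.69 (SE 0.32). Of the 77, only Mrpl27 had groups apart, with 15.7, 15.2 and 9.73 CPM in KO and 18, 18.3 and 22.7 in WT (-0.54), beside 4.94% of all genes with KO entirely below and 4.46% above. The median was -0.05. Among members at 10 CPM or more the largest positive values were 0.34 for Mrpl22, 0.33 for Mrpl50 and 0.28 for Mrps16, and next to Mrpl23 and Mrpl27 on the negative side was Mrps21 (-0.52), all at an adjusted p of 0.999 by edgeR. Leaving out 1 library moved Mrpl22 between 0.10 and 0.88.

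The KO effect in CD4 minus that in CD8 was tested directly as an interaction. No member passed, and 0% of all genes did. At an unadjusted p under 0.05, 14 members had a higher effect in CD4 and 1 a lower one, beside 8.18% and 9.69% of all genes, and the median difference was 0.24, with 59 of 77 positive. The largest differences were those of Mrps15 (0.67, SE 0.21, adjusted p = 0.103), Mrps23 (0.66, SE 0.22, adjusted p = 0.121) and Mrpl58 (0.65, SE 0.23, adjusted p = 0.127). Under 21 alternatives Mrps15 passed in 3, Mrps23 in 2 and Mrpl58 in 0. In the other direction stood Mrps28 (-1.11, SE 0.70), Mrps21 (-1.04, SE 0.48) and Mrpl23 (-0.73, SE 0.38). Single libraries weighed on several of these: Mrps28 stood at -0.34 without CD4 WT replicate 3, Mrps21 at -0.67 without CD8 KO replicate 3 and Mrps23 at 0.39 without CD4 KO replicate 3. For the same difference the 8 B cell markers had a median of -0.89 and the 5 tested erythroid markers of -1.01, with T cell markers at 0.63.

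**Figure D5:**
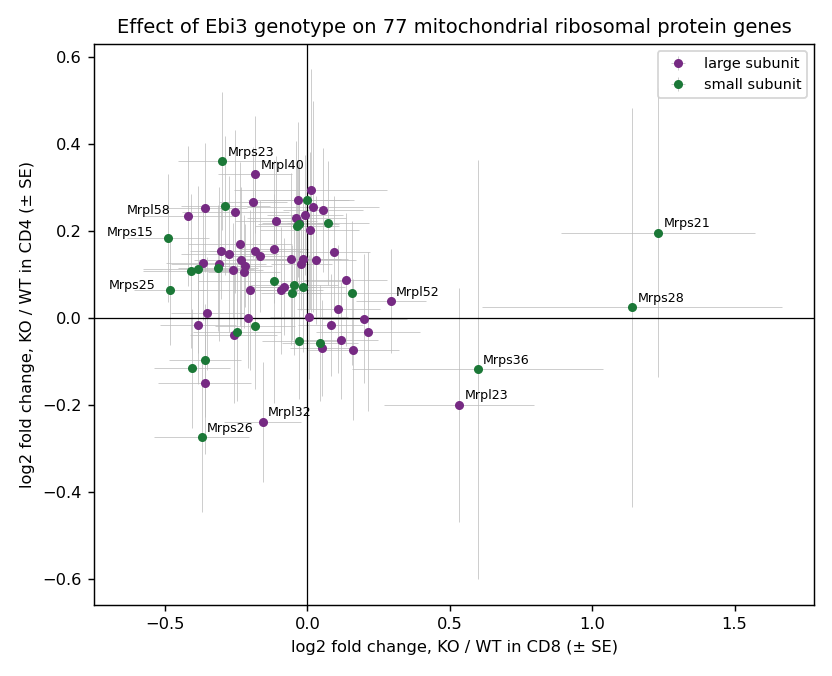
Log2 fold change ± SE of each tested gene, KO over WT, in CD8 (horizontal) and in CD4 (vertical), with the large subunit in purple and the small in green. In CD8, 54 of 77 points lie below 0 and in CD4, 57 of 77 lie above it, and no point passed the test in either.

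Across the 18 libraries most members varied together. The correlation of each member's log2 CPM with the mean of the others had a median of 0.80, and it was above 0.5 in 58 of 77 members and negative in 9. It was highest for Mrps30, at 0.96, and for Mrpl15 and Mrpl19, and lowest for Mrpl52, at -0.69, then Mrpl54, Mrps21, Mrpl23 and Mrpl38. Over the 12 CD8 and CD4 libraries the median was 0.49, with 37 members above 0.5 and 12 negative. Members of a library share its depth and makeup, so these values are descriptions. Among 9215 other genes at 10 CPM or more, the 5 closest to the members' mean over the 18 libraries were Pa2g4, with r = 0.99 (0.90 over the 12 CD8 and CD4 libraries), Galk1, with 0.98 (0.96), Ndufb8, with 0.98 (0.91), Trip13, with 0.98 (0.90), and Ybx3, with 0.98 (0.93). Pa2g4 encodes a ribosome-associated growth regulator, Galk1 galactokinase, Ndufb8 a subunit of respiratory complex I, Trip13 an ATPase of the mitotic checkpoint and Ybx3 an RNA-binding protein.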

How the data were processed

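The labels' protocols describe QuantSeq 3' mRNA libraries with unique molecular identifiers. The authors deposited 1 table of whole-number counts per gene. The tools named are STAR 2.5.3a, featureCounts of Subread 2.0.0, UMI-tools 1.0.0, cutadapt 2.10 and FastQC, and the build GRCm38 (mm10), per the submitters' processing notes. Of its genes, 55227 matched GENCODE M21 by identifier and 260 did not. How multiply aligned reads and strand were counted is not given in the sources used here, and unresolved copies can lower or raise a member's count.

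The counts were tested in R 4.3.3 with edgeR 4.0.16 (limma 3.58.1): genes kept by filterByExpr (minimum count 10), TMM scaling, 1 quasi-likelihood fit of 6 group means over the 18 libraries with 12 residual degrees of freedom, and Benjamini-Hochberg adjustment over all 12693 genes, called at 0.05. Simulated counts with known changes were used to check the fit. A count of 0 allows up to 3 counts. The members named are, per comparison, up to 10 called in each direction by size, those with groups apart first. Where fewer than 6 were called, the 3 largest changes each way at a mean of 10 CPM or more were added. The 5 highest and 5 lowest in level and 9 members chosen for role or paralogy were always named. Mrpl19, Mrpl45, Mrpl49 and Mrpl57 were chosen after their values were seen. Named members, lists and tests were chosen with earlier results of these data known. Alternatives were DESeq2 1.42.0, limma-voom, other scalings, no filter, the replicate block, a hemoglobin covariate, 1 genotype at a time and leaving out each library.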

Additional observations from a re-analysis of the deposited data

Results flagged for a closer look

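In 2 of 77 members (2.6%) all KO libraries lay below all WT libraries in CD8 and above them in CD4, as in 85 of 12693 genes (0.67%), and in 0 members the reverse was seen (0.567% of genes). With 2 members, nothing is read from that share, and the p-values below are for genes chosen for this pattern. Mrpl33, of the large subunit, had a log2 fold change, KO over WT, of -0.303 in CD8 and 0.15 in CD4. Their difference was 0.46 (edgeR quasi-likelihood interaction, unadjusted p = 0.00627, adjusted p = 0.124). Mrpl40 had -0.184 in CD8 and 0.33 in CD4, with a difference of 0.51 (adjusted p = 0.149). Neither difference passed the adjusted threshold. All 8 B cell markers had fold changes of the opposite sign in both cell labels, and their part in these values was not tested.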

How the results depend on the processing

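Results kept their direction under the alternatives unless given here. RLE scaling called 1 member higher in CD8 than CD4 and 3 in Treg than CD8. Total-count scaling gave Treg medians of -0.60 against CD4 and -0.60 against CD8, where all genes moved to -0.04 and -0.04, with 3 members higher against CD8. Without the filter on low counts, 1 member was higher and 2 lower in KO against WT in CD8, beside 253 and 194 of 30423 genes. In the same fit 2 members were higher in Treg against CD4 and 2 against CD8, with medians of -0.63 and -0.66. For the difference of KO effects 3 members were higher and 0 lower, beside 253 and 349 of 30423 genes. DESeq2 called 1 higher in CD8 than CD4 and 3 in Treg than CD8. Merging the near-identical Treg pairs left 3 higher against CD8. Using only the libraries compared called 1 higher in CD8 than CD4, as did leaving out the Treg-label libraries, an alternative chosen after seeing the data. With the hemoglobin covariate the KO over WT median in CD8 was 0.00384. Within WT the medians were 0.18 for CD8 over CD4, -0.42 for Treg over CD4 and -0.57 for Treg over CD8. Within KO, 0 members were higher in CD8 than CD4 (median -0.0222), 0 in Treg than CD4 and 0 in Treg than CD8. Beside these stood 174, 3524 and 3189 of 12693 genes. Mrpl23 stood at -0.12 for Treg over CD8 within KO. The replicate block called 1 member higher in CD8 than CD4. The numbers did not pair the samples: deviations of same-numbered samples correlated at -0.340 to 0.307.

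Leaving out 1 library at a time gave, for KO against WT in CD8, 0 to 4 members lower and medians of -0.14 to -0.07, in CD4 medians of 0.05 to 0.16, and in Treg -0.08 to -0.00. CD8 against CD4 had 1 to 2 higher, 0 to 1 lower and medians of 0.02 to 0.10. Treg against CD4 had 3 to 5 higher, 49 to 55 lower and medians of -0.53 to -0.46, and against CD8 3 to 4 higher, 54 to 57 lower and medians of -0.54 to -0.49. The difference of KO effects had 0 to 3 higher and medians of 0.15 to 0.31. The 4 lower and the 3 higher arose without CD8 WT replicate 3, and the median of 0.15 without CD4 WT replicate 1. Without CD8 WT replicate 3, 269 of 13244 genes were lower for KO against WT in CD8 and 335 higher for the difference. Mrpl50, KO over WT in Treg, ranged from -0.10 without Treg KO replicate 3 to 0.74 without Treg WT replicate 2. Causes were not tested. Depth limits the lowest members, where a few counts set a fold change.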
